A study of Rattus norvegicus with 16 samples.

Results

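The genes described here are 49 genes that work in DNA replication and mitosis, chosen by name. Of them, 47 had at least 1 probe set that the platform annotation ties to that symbol alone, 65 probe sets in all, out of 13439 genes and 31139 probe sets on the array. No such probe set was found for Tpx2 and Ndc80. A gene with several probe sets was read from the one with the highest mean over the 16 arrays. By role the 49 were 14 genes of replication and nucleotide supply, 3 cyclins of the G1 phase and 32 genes of mitosis.

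The RNA came from the livers of 16 male rats of the inbred F344 strain, in 4 groups of 4, and each liver was read on 1 Affymetrix RG-230 PM array. The hydrogen CDAA and control CDAA groups ate the CDAA diet, which lacks choline and supplies L-amino acids in place of protein and is used in rats to bring on a fatty and inflamed liver. The hydrogen normal-diet and control normal-diet groups ate the basal chow CE-2. Hydrogen rats drank water with 0.7 mM dissolved hydrogen and were kept in air holding 2% hydrogen, whereas control rats drank water from which stirring had let the hydrogen escape and breathed ordinary air. All rats entered at 4 weeks of age and were reared for 3 weeks. Values are the authors' log2 expression values, where 1 unit is a doubling. They ran between 2.42 and 13.73, with array medians of 4.33 to 4.37, and no 2 arrays held identical values.

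A cell that divides first copies its DNA and then separates the copies. G1 cyclins start the programme, the E2F factors switch on the genes of S phase, and the Mcm helicase opens the double helix for polymerases that need a steady supply of deoxynucleotides. Later Cdk1 with cyclin A and cyclin B drives the cell into mitosis, where kinases, kinesins and the anaphase-promoting complex build the spindle, part the chromosomes and finish the division. Hepatocytes of a resting adult liver are mostly outside this cycle, while those of young animals and of injured livers can enter it. In a piece of whole liver, more dividing cells and more transcript per dividing cell cannot be told apart, and the same holds for fewer.

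The tissue label was checked against marker genes. The 7 measured of 8 hepatocyte markers averaged 12.77 to 12.81 on hydrogen CDAA arrays, 12.72 to 12.83 on control CDAA arrays, 12.75 to 12.79 on hydrogen normal-diet arrays and 12.78 to 12.81 on control normal-diet arrays, so the 4 groups overlapped. Markers of other liver cells differed more with the diet. The 11 measured of 12 macrophage markers averaged 8.16 to 8.67 on hydrogen CDAA arrays and 8.09 to 8.33 on control CDAA arrays, against 7.54 to 7.73 on hydrogen normal-diet arrays and 7.36 to 8.01 on control normal-diet arrays. The 7 stellate cell markers averaged 7.14 to 7.30 and 6.97 to 7.23 on hydrogen and control CDAA arrays, against 6.57 to 6.73 and 6.55 to 6.93 on the matching normal-diet arrays. For the 6 bile duct markers, of which Sox9 lay under the low-value line of 3.68 on every array, the ranges were 4.97 to 5.25 and 4.60 to 5.20 on hydrogen and control CDAA arrays, against 4.45 to 4.48 and 4.36 to 4.57. These averages mix markers of both directions. With the CDAA diet 9 macrophage markers were higher and 2 lower in hydrogen rats (log2 −0.38 to 3.21). In control rats 8 were higher and 3 lower (log2 −0.61 to 2.575). Stellate markers split 6 and 1 in hydrogen rats and 7 and 0 in control rats. The 5 tested bile duct markers split 4 and 1 in each. Hepatocyte markers split 4 and 3 in hydrogen rats and 3 and 4 in control rats. Endothelial markers (5 of 6 measured) overlapped between the diets, at 7.56 to 8.02 on CDAA arrays and 7.25 to 7.80 on normal-diet arrays. Markers of T and NK cells (10 of 10, with Cd3d and Cd5 under the line throughout) averaged 3.96 to 4.30 over the 16 arrays. Those of B cells (3 of 5) averaged 4.17 to 4.74. Of 5 neutrophil markers 3 were measured, with S100a8 and Csf3r under the line throughout. In hydrogen rats they averaged 3.81 to 4.14 on CDAA arrays and 3.87 to 3.92 on normal-diet arrays. In control rats the ranges were 3.72 to 3.94 and 4.02 to 4.10, without overlap. Red blood cell markers (4 of 7) did not overlap between the diets. They averaged 3.995 to 4.26 and 4.005 to 4.08 on hydrogen and control CDAA arrays, against 4.27 to 4.43 and 4.30 to 4.53. All 4 were lower with the CDAA diet in both treatments. The part of these cell types in the results was not tested.

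The groups were compared with limma, using the 16 arrays together and a mean for each group, and a gene counts as called when its p, adjusted by Benjamini-Hochberg over 22634 probe sets, was under 0.05. Of the 47 genes, 45 passed the filter on low values (above 3.68 on at least 4 arrays), which were 14 replication genes, 3 G1 cyclins and 28 mitosis genes. Bub1b, a kinase of the spindle checkpoint, lay between 3.15 and 3.88 and Melk, a kinase of dividing cells, between 3.33 and 4.01, and neither was tested.

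On the CDAA diet the called members were higher, and none was called lower. In hydrogen rats 15 of the 45 tested members rose and 0 fell, while 32.1% of the 11434 genes tested rose and 17.3% fell. In control rats again 15 of 45 rose and 0 fell, beside 27.3% higher and 13.3% lower over all genes. The share of members that rose was near the share of all genes that rose, so this count is no result about these genes. The median log2 difference over the 45 was 0.37 in hydrogen rats, where the median of all genes was 0.05, and 0.44 in control rats, where it was 0.04. Differences lay above 0 for 44 and 43 of the 45 genes, which are read from the same livers and are not independent observations. At an unadjusted p under 0.05 there were 20 members in hydrogen rats (56.9% of all genes) and 24 in control rats (49.3%). Every CDAA array lay above every normal-diet array for 13 members in hydrogen rats (28.8% of all genes) and for 8 in control rats (24.7%), and below it for 0 and 0 (15% and 13.3%).

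**Figure D1:**
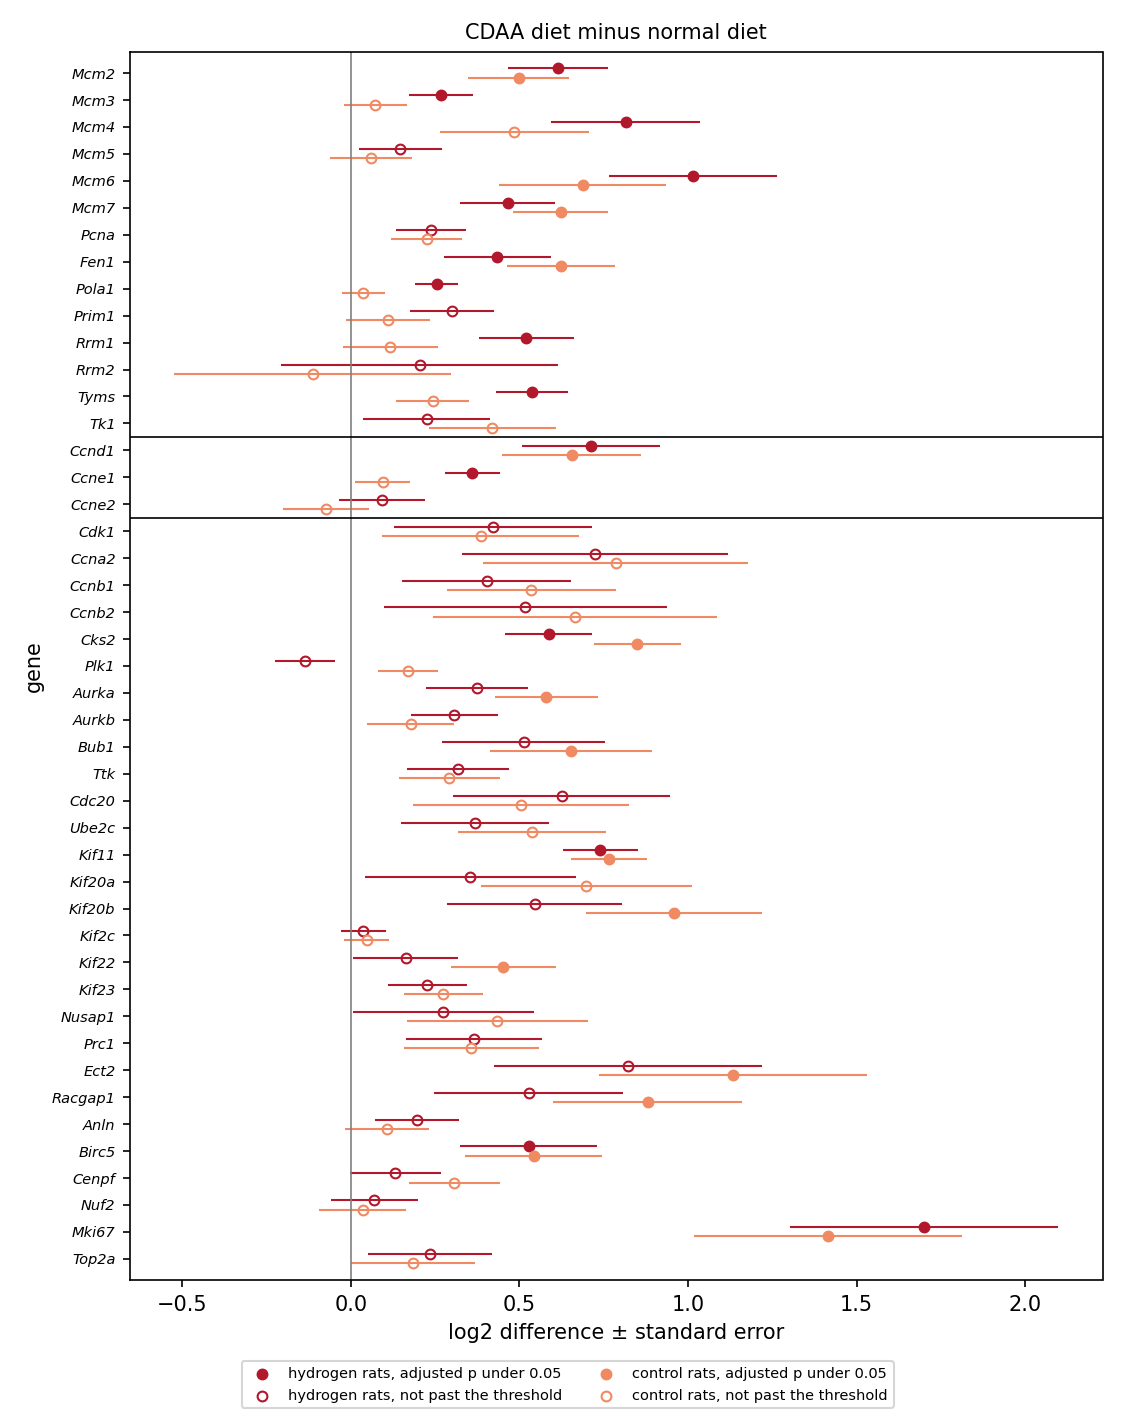
Log2 difference between the CDAA diet and the normal diet for each of the 45 tested genes, with the standard error of the fit as a bar, in hydrogen rats (dark red, 4 against 4) and in control rats (orange, 4 against 4). Filled points have an adjusted p under 0.05 in limma; the horizontal lines part replication genes (top), G1 cyclins and mitosis genes. Mki67 lies farthest to the right in both comparisons, at 1.70 and 1.42.

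The promoters of 40 of the 49 genes were found in a RefSeq table (rat assembly GRCr8), which had no entry for Mcm4, Rrm2, Ccnd1, Ccne2, Ccna2, Aurkb, Racgap1, Ube2c and Tpx2. Each window of 300 bases, 250 before the gene start and 50 after it, was searched on both strands for 3 kinds of short motif. These were E2F-type sites (TTTCCCGC, TTTCGCGC, TTTGCCGC or TTTGGCGC), known for S-phase genes, the cell cycle homology region or CHR (TTTGAA or TTCGAA), known for G2 and mitosis genes, and the CCAAT box. An E2F-type match was found for 7 of 12 replication genes (58.3%), for 1 of 27 mitosis genes (3.7%, Cdk1) and in 2.25% of 27457 rat promoters. A CHR match was found for 3 of 12 replication genes (25.0%), 20 of 27 mitosis genes (74.1%) and 19.5% of all promoters. The CCAAT letters were found for 8 of 12 replication genes (66.7%), 19 of 27 mitosis genes (70.4%) and 37.7% of all promoters. Such matches describe the letters and are not shown to be bound.

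Replication promoters are shown for Mcm7, the replication gene of smallest adjusted p for the diet in control rats (chr12:22163179-22163428, minus strand), and Mcm6, of the same complex and added after the matches were seen for its E2F-type pair (chr13:42404353-42404602, minus strand). Capitals mark the motifs, and positions count back from −1, the last base before the gene start. In Mcm7 the E2F-type letters start at −233 (read on the opposite strand) and at −52, the second sharing bases with a CCAAT box at −45, the palindrome TTCGAA stands at −241, and opposite-strand CCAAT boxes stand at −140 and −94. In Mcm6 the matches at −139 and −135 overlap on opposite strands, and opposite-strand CCAAT boxes stand at −86 and −43.
Mcm7: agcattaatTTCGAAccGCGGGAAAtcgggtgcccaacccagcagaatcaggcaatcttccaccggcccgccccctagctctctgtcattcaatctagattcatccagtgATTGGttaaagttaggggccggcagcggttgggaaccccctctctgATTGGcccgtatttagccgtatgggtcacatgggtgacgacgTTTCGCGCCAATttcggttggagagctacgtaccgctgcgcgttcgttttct
Mcm6: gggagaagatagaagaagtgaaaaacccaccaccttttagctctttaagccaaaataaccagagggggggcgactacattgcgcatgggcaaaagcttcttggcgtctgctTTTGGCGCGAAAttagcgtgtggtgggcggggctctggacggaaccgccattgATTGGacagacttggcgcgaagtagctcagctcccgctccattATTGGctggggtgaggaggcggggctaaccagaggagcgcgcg

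The 6 Mcm genes encode the subunits of the replicative helicase. Mcm7 read 7.43, 7.30, 8.14 and 7.43 in hydrogen CDAA livers, against 7.12, 7.13, 7.10 and 7.09 in hydrogen normal-diet livers. In control rats it read 7.69, 7.57, 7.97 and 7.49 in control CDAA livers, against 7.08, 6.97, 7.02 and 7.16 in control normal-diet livers. The CDAA arrays lay above the normal-diet arrays in both comparisons without overlap, and hydrogen CDAA replicate 3 stood well above its group. Mcm7 was 1.38-fold higher with the CDAA diet in hydrogen rats (log2 0.47 ± 0.14, adjusted p = 0.0142) and 1.54-fold higher in control rats (log2 0.62 ± 0.14, adjusted p = 0.00279). Without hydrogen CDAA replicate 3 the first of these log2 differences was 0.28 and kept its call (adjusted p = 0.0253), while a second quantile normalization ended that call (log2 0.31, adjusted p = 0.0913).

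Mcm6 had values of 5.40, 4.88, 6.13 and 5.20 in hydrogen CDAA livers, against 4.68, 4.25, 4.57 and 4.05 in hydrogen normal-diet livers. Its control groups gave 5.26, 5.11, 6.09 and 4.91 in control CDAA livers, against 4.61, 4.77, 4.69 and 4.55 in control normal-diet livers. Again both pairs of groups were apart, with replicate 3 the highest of each CDAA group. The gene was 2.02-fold higher with the CDAA diet in hydrogen rats (log2 1.01 ± 0.25, adjusted p = 0.00376) and 1.61-fold higher in control rats (log2 0.69 ± 0.25, adjusted p = 0.041). The call in control rats was lost without control CDAA replicate 3, where the log2 difference was 0.44 (adjusted p = 0.149), without control CDAA replicate 1 (adjusted p = 0.0618), without any 1 of the 4 control normal-diet arrays (adjusted p = 0.0613 to 0.0813), and with no filter on low values (adjusted p = 0.0539).

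For Mcm2 the arrays gave 5.19, 5.31, 5.81 and 5.46 in hydrogen CDAA livers, against 4.80, 4.88, 4.95 and 4.68 in hydrogen normal-diet livers. Those of control rats gave 5.23, 5.62, 5.84 and 5.13 in control CDAA livers, against 4.86, 5.19, 4.87 and 4.91 in control normal-diet livers. The hydrogen groups were apart, while control normal-diet replicate 2 reached into the range of the control CDAA arrays. Mcm2 was 1.53-fold higher with the CDAA diet in hydrogen rats (log2 0.61 ± 0.15, adjusted p = 0.0035) and 1.41-fold higher in control rats (log2 0.50 ± 0.15, adjusted p = 0.0161), and the second call was lost without control CDAA replicate 3 (log2 0.37, adjusted p = 0.0620). Mcm4 read 6.15, 6.14, 7.00 and 6.40 in hydrogen CDAA livers, against 5.59, 5.62, 5.90 and 5.32 in hydrogen normal-diet livers. Its control arrays read 6.15, 6.43, 7.05 and 5.83 in control CDAA livers, against 5.77, 6.07, 5.90 and 5.78 in control normal-diet livers. All hydrogen CDAA arrays were above the hydrogen normal-diet arrays, and the control groups overlapped through control CDAA replicate 4. Mcm4 was 1.76-fold higher with the CDAA diet in hydrogen rats (log2 0.81 ± 0.22, adjusted p = 0.00734), and in control rats its difference did not pass (log2 0.48 ± 0.22, adjusted p = 0.101).

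Mcm3 showed 4.51, 4.63, 4.84 and 4.64 in hydrogen CDAA livers, against 4.43, 4.43, 4.42 and 4.27 in hydrogen normal-diet livers. The control pair showed 4.63, 4.58, 4.80 and 4.40 in control CDAA livers, against 4.33, 4.57, 4.71 and 4.51 in control normal-diet livers. The hydrogen groups did not overlap and the control groups did. Mcm3 was 1.2-fold higher with the CDAA diet in hydrogen rats (log2 0.27 ± 0.09, adjusted p = 0.0289), a call lost without hydrogen CDAA replicate 3 (adjusted p = 0.0985) or hydrogen normal-diet replicate 4 (adjusted p = 0.0853) and with array weights (adjusted p = 0.0504), and its log2 difference in control rats did not pass (0.07 ± 0.09, adjusted p = 0.581). Mcm5 passed in neither comparison, with log2 differences of 0.15 in hydrogen rats and 0.06 in control rats.

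At the replication fork, Fen1 trims the flaps of Okazaki fragments, Pcna is the sliding clamp, and Pola1 and Prim1 are the catalytic subunits of polymerase alpha and of primase. Fen1 had 4.93, 4.82, 5.68 and 5.34 in hydrogen CDAA livers, against 4.56, 4.75, 4.90 and 4.82 in hydrogen normal-diet livers. The control pair had 5.70, 5.21, 5.62 and 5.19 in control CDAA livers, against 4.93, 4.78, 4.72 and 4.80 in control normal-diet livers. The control groups were apart, and hydrogen CDAA replicate 2 fell within the hydrogen normal-diet range. Fen1 was 1.35-fold higher with the CDAA diet in hydrogen rats (log2 0.43 ± 0.16, adjusted p = 0.0365) and 1.54-fold higher in control rats (log2 0.62 ± 0.16, adjusted p = 0.00634). The first call was lost without hydrogen CDAA replicate 3 (log2 0.27, adjusted p = 0.133) or 4 (adjusted p = 0.0853) and without hydrogen normal-diet replicate 1, 2 or 4 (adjusted p = 0.101, 0.0671 and 0.0546). It was also lost with a second quantile normalization (adjusted p = 0.0586) and in a fit to the compared groups only (adjusted p = 0.0639).

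Pola1 ran close to the low-value line, at 4.01, 4.16, 4.01 and 3.83 in hydrogen CDAA livers, against 3.70, 3.79, 3.78 and 3.72 in hydrogen normal-diet livers. Control livers gave 3.80, 3.93, 3.94 and 3.88 in control CDAA livers, against 3.82, 3.90, 3.81 and 3.87 in control normal-diet livers. The hydrogen CDAA arrays were all above the hydrogen normal-diet arrays by a narrow margin, and the control groups overlapped. Pola1 was 1.19-fold higher with the CDAA diet in hydrogen rats (log2 0.26 ± 0.06, adjusted p = 0.00407), and its difference did not pass in control rats (log2 0.04 ± 0.06, adjusted p = 0.679). Pcna and Prim1 passed in neither, with log2 differences of 0.24 in hydrogen rats and 0.23 in control rats for Pcna and 0.30 in hydrogen rats and 0.11 in control rats for Prim1.

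Nucleotide supply rests on ribonucleotide reductase, whose large subunit is Rrm1 and whose S-phase subunit is Rrm2, on thymidylate synthase (Tyms) and on thymidine kinase (Tk1). Tyms showed 4.07, 4.13, 4.17 and 4.27 in hydrogen CDAA livers, against 3.65, 3.52, 3.59 and 3.73 in hydrogen normal-diet livers. In control rats the arrays showed 4.24, 3.80, 4.17 and 3.94 in control CDAA livers, against 3.99, 3.72, 3.51 and 3.96 in control normal-diet livers. The 4 hydrogen CDAA arrays were above the 4 hydrogen normal-diet arrays, 3 of which lay under the low-value line, and the control groups overlapped. Tyms was higher with the CDAA diet in hydrogen rats (log2 0.54 ± 0.11, adjusted p = 0.000849), and the difference in control rats did not pass (log2 0.24 ± 0.11, adjusted p = 0.092). Rrm1 had 5.37, 5.35, 5.97 and 5.51 in hydrogen CDAA livers, against 5.19, 4.89, 5.19 and 4.85 in hydrogen normal-diet livers. Control rats had 5.14, 5.45, 5.57 and 5.11 in control CDAA livers, against 5.41, 5.20, 5.03 and 5.16 in control normal-diet livers. As for Tyms, the hydrogen groups were apart and the control groups overlapped. Rrm1 was 1.43-fold higher with the CDAA diet in hydrogen rats (log2 0.52 ± 0.14, adjusted p = 0.00714), and its difference in control rats did not pass (log2 0.12 ± 0.14, adjusted p = 0.549).

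Rrm2, the S-phase subunit, read 6.41, 5.43, 7.83 and 6.97 in hydrogen CDAA livers, against 6.95, 6.35, 6.12 and 6.40 in hydrogen normal-diet livers. In control rats the values were 7.86, 6.27, 7.95 and 7.49 in control CDAA livers, against 7.82, 7.40, 7.39 and 7.41 in control normal-diet livers. Both CDAA groups were wide, and replicate 2 was the lowest array of each, below every array of the matching normal-diet group. Neither diet difference passed (log2 0.20 ± 0.41, adjusted p = 0.704 in hydrogen rats and −0.11 ± 0.41, adjusted p = 0.857 in control rats). Tk1 did not pass either, with log2 differences of 0.23 in hydrogen rats and 0.42 in control rats.

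**Figure D2:**
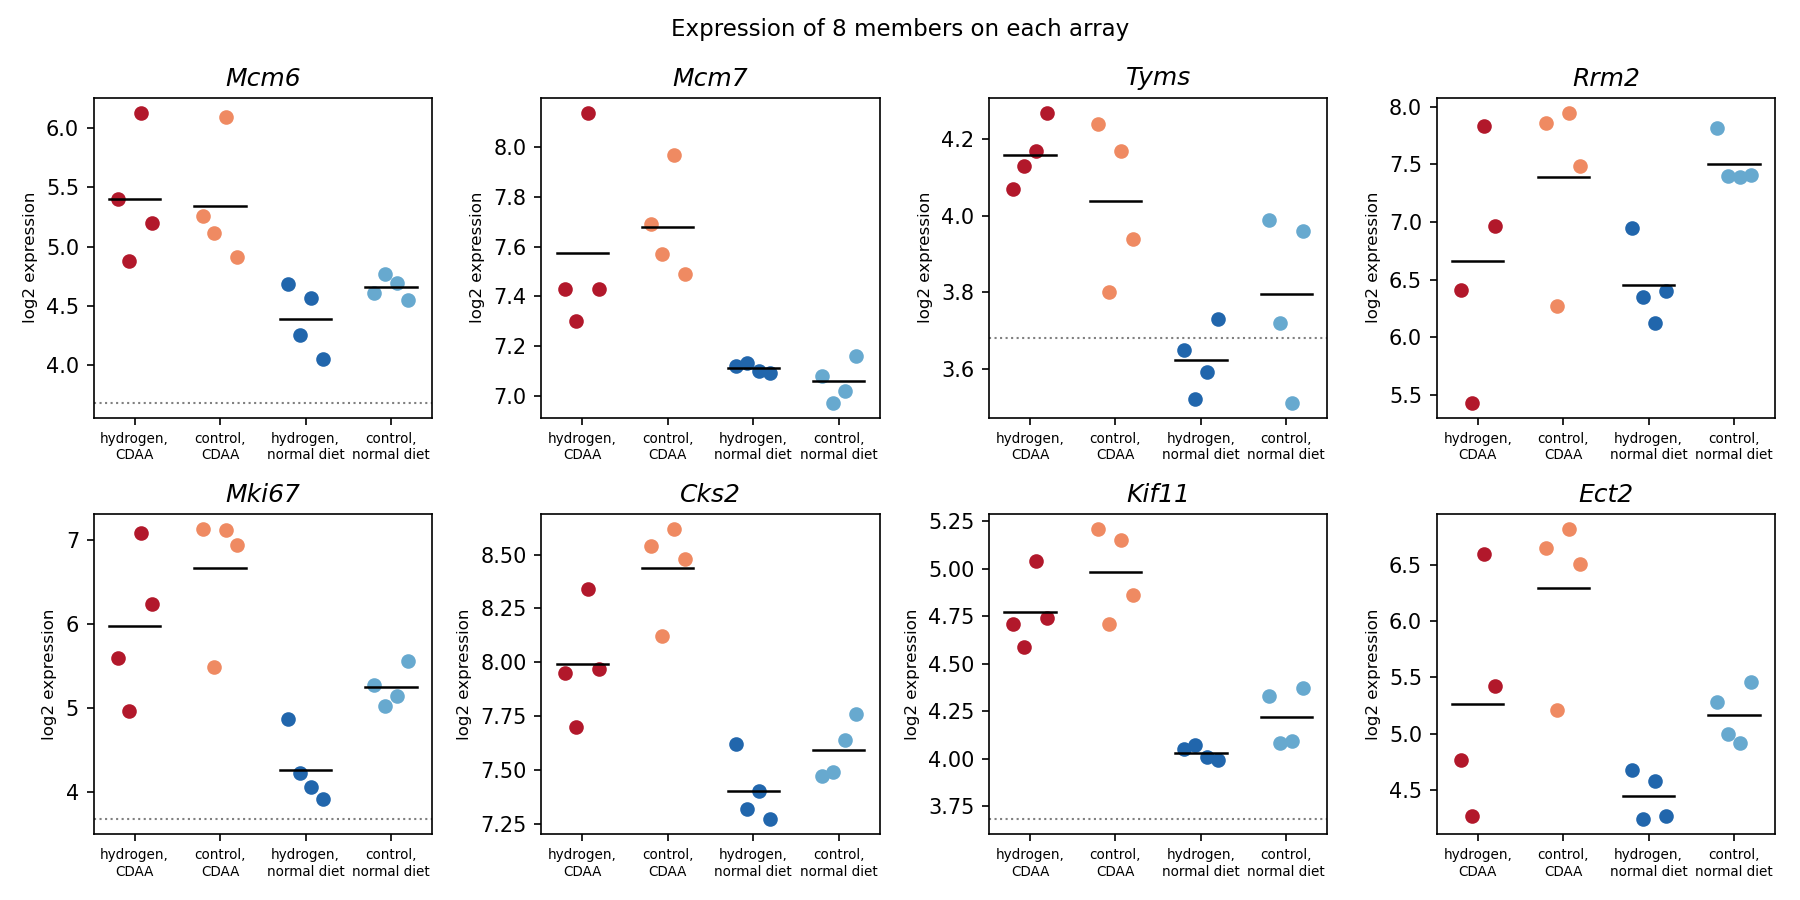
Log2 expression of 8 genes on each of the 16 arrays, with the mean of each group as a short line; from left to right hydrogen CDAA, control CDAA, hydrogen normal-diet and control normal-diet livers, and the dotted line marks the low-value line of 3.68. Mcm7 and Kif11 part the diets in both comparisons, whereas Rrm2 and Ect2 spread over more than 1 log2 unit within each CDAA group.

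Over the 14 replication genes, 9 rose in hydrogen rats (median log2 difference 0.37) and 4 in control rats (median 0.23), beside 32.1% and 27.3% of all genes, and the count in control rats is near the share of all genes. The difference between the 2 diet effects was tested by the interaction term of the same limma fit, which called 0 of the 45 members (smallest adjusted p = 0.502, 3 at an unadjusted p under 0.05), beside 0% of all genes higher and 0% lower and 9.27% at an unadjusted p under 0.05.

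Of the 3 G1 cyclins, Ccnd1 (cyclin D1, which activates Cdk4 and Cdk6) had 9.43, 8.85, 9.81 and 9.46 in hydrogen CDAA livers, against 8.41, 8.86, 8.87 and 8.56 in hydrogen normal-diet livers. In control rats it had 9.66, 9.00, 9.07 and 8.90 in control CDAA livers, against 8.04, 8.73, 8.51 and 8.73 in control normal-diet livers. The control groups were apart, and hydrogen CDAA replicate 2 fell within the hydrogen normal-diet range. Ccnd1 was 1.64-fold higher with the CDAA diet in hydrogen rats (log2 0.71 ± 0.21, adjusted p = 0.0104) and 1.57-fold higher in control rats (log2 0.66 ± 0.21, adjusted p = 0.0205), and the second call was lost without control CDAA replicate 1 (log2 0.49, adjusted p = 0.0750) or control normal-diet replicate 1 (log2 0.50, adjusted p = 0.0772). Its other 2 probe sets were not called in either comparison, and the mean over its probe sets was not called in hydrogen rats (log2 0.43, adjusted p = 0.162) or control rats (log2 0.37, adjusted p = 0.260).

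Ccne1, cyclin E1, which activates Cdk2 at the start of S phase, had 5.43, 5.27, 5.49 and 5.27 in hydrogen CDAA livers, against 4.85, 5.06, 5.06 and 5.05 in hydrogen normal-diet livers. The control groups gave 5.19, 5.30, 5.06 and 5.15 in control CDAA livers, against 5.12, 5.26, 4.92 and 5.02 in control normal-diet livers. The hydrogen groups were apart and the control groups overlapped. Ccne1 was 1.28-fold higher with the CDAA diet in hydrogen rats (log2 0.36 ± 0.08, adjusted p = 0.00216), and its difference in control rats did not pass (log2 0.10 ± 0.08, adjusted p = 0.392). Ccne2, cyclin E2, lay between 3.46 and 4.06 on the 16 arrays and was not called.

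Mitosis promoters are shown for Kif11, the mitosis gene of smallest adjusted p for the diet in control rats (chr1:244536617-244536866, plus strand), and for 4 further called genes that hold a CHR, which are Cks2 (chr17:13727520-13727769, minus strand), Kif20b (chr1:241840766-241841015, plus strand), Mki67 (chr1:199952594-199952843, minus strand) and Kif22 (chr1:191080879-191081128, minus strand). Kif11 holds 1 opposite-strand CCAAT box at −61 and no CHR letters. In Cks2 the opposite-strand CHR starts at −19, downstream of 4 CCAAT boxes, of which those at −96 and −60 are on the opposite strand. In Kif22 the opposite-strand CHR starts at −16, with a CCAAT box at −231 and an opposite-strand CCAAT box at −53. Kif20b has TTTGAA at −116, an opposite-strand CCAAT box at −155 and further TTTGAA just after the gene start, outside the bases shown. Mki67 has TTTGAA at −117 and −99, the second sharing bases with an opposite-strand CCAAT box at −94. It has 3 further CCAAT boxes upstream, that at −167 on the opposite strand.
Kif11: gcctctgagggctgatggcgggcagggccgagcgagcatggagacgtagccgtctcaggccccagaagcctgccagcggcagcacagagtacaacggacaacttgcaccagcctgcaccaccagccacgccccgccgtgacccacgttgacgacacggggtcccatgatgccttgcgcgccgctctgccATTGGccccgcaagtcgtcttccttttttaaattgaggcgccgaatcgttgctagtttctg
Cks2: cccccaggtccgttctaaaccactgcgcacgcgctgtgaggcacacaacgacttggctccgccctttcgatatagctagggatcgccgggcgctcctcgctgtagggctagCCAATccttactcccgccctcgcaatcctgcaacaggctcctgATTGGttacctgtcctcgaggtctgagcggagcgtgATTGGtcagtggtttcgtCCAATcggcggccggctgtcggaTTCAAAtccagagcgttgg
Kif20b: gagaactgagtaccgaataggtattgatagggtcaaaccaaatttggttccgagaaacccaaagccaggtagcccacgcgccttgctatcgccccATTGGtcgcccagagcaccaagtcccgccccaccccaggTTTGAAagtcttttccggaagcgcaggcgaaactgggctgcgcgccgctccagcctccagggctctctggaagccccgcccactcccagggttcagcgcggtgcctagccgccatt
Mki67: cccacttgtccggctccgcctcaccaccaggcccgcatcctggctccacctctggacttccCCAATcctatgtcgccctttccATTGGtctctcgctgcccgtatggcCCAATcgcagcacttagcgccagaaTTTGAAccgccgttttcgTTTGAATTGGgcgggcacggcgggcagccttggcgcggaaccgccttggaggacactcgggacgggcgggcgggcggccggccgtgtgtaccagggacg
Kif22: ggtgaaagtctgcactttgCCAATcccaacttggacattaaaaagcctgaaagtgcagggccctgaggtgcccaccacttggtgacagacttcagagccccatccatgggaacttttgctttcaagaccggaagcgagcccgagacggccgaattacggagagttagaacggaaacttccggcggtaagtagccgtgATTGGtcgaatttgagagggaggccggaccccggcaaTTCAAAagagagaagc

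Of the 28 mitosis genes tested, 4 rose in hydrogen rats (median log2 difference 0.37), a smaller share than the 32.1% of all genes, and 10 in control rats (median 0.52), beside 27.3% of all genes. Mki67, the gene of the Ki-67 protein that coats mitotic chromosomes and marks cycling cells, had the largest log2 difference of the 45 in both comparisons. It read 5.59, 4.97, 7.08 and 6.24 in hydrogen CDAA livers, against 4.87, 4.23, 4.06 and 3.92 in hydrogen normal-diet livers. In control rats it read 7.13, 5.49, 7.12 and 6.94 in control CDAA livers, against 5.28, 5.03, 5.15 and 5.56 in control normal-diet livers. The hydrogen groups were apart by a narrow margin, and in control rats CDAA replicate 2 fell within the normal-diet range while the other 3 CDAA arrays lay far above it. Mki67 was 3.25-fold higher with the CDAA diet in hydrogen rats (log2 1.70 ± 0.40, adjusted p = 0.00274) and 2.67-fold higher in control rats (log2 1.42 ± 0.40, adjusted p = 0.0111). Top2a, the topoisomerase that untangles sister chromatids, was not called, with log2 differences of 0.23 in hydrogen rats and 0.18 in control rats.

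Among Cdk1 and its partners only Cks2, a small subunit of the Cdk complexes, was called. Cks2 gave 7.95, 7.70, 8.34 and 7.97 in hydrogen CDAA livers, against 7.62, 7.32, 7.40 and 7.27 in hydrogen normal-diet livers. In control rats it gave 8.54, 8.12, 8.62 and 8.48 in control CDAA livers, against 7.47, 7.49, 7.64 and 7.76 in control normal-diet livers. Both pairs of groups were apart, and replicate 2 was the lowest array of each CDAA group. Cks2 was 1.5-fold higher with the CDAA diet in hydrogen rats (log2 0.59 ± 0.13, adjusted p = 0.00171) and 1.8-fold higher in control rats (log2 0.85 ± 0.13, adjusted p = 0.000128). Ccnb2, cyclin B2, had 5.90, 4.69, 6.86 and 6.37 in hydrogen CDAA livers, against 6.04, 5.22, 5.01 and 5.48 in hydrogen normal-diet livers. In control rats Ccnb2 had 7.63, 5.67, 7.23 and 7.02 in control CDAA livers, against 6.28, 6.00, 6.01 and 6.60 in control normal-diet livers. CDAA replicate 2 of either group lay below the matching normal-diet arrays, and the other CDAA arrays lay mostly above them. Its log2 differences did not pass (0.52 ± 0.42, adjusted p = 0.329 in hydrogen rats and 0.67 ± 0.42, adjusted p = 0.237 in control rats). Cdk1, the kinase itself, and the cyclins Ccna2 and Ccnb1 did not pass either, with log2 differences of 0.42 in hydrogen rats and 0.39 in control rats for Cdk1, 0.72 in hydrogen rats and 0.79 in control rats for Ccna2 and 0.40 in hydrogen rats and 0.54 in control rats for Ccnb1.

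Kinesins move along microtubules. Kif11, the motor that pushes the spindle poles apart, had 4.71, 4.59, 5.04 and 4.74 in hydrogen CDAA livers, against 4.05, 4.07, 4.01 and 3.99 in hydrogen normal-diet livers. Its control arrays had 5.21, 4.71, 5.15 and 4.86 in control CDAA livers, against 4.33, 4.08, 4.09 and 4.37 in control normal-diet livers. Every CDAA array was above every normal-diet array of the same treatment, and the hydrogen normal-diet arrays lay within a range of 0.08. Kif11 was 1.67-fold higher with the CDAA diet in hydrogen rats (log2 0.74 ± 0.11, adjusted p = 8.27e-05) and 1.7-fold higher in control rats (log2 0.77 ± 0.11, adjusted p = 9.73e-05). A second, dimmer probe set of Kif11 was called in neither. Kif20b, a motor of late mitosis and cytokinesis, showed 4.14, 3.81, 5.10 and 4.10 in hydrogen CDAA livers, against 4.09, 3.87, 3.53 and 3.48 in hydrogen normal-diet livers. In control rats Kif20b showed 5.26, 4.18, 5.40 and 4.82 in control CDAA livers, against 3.84, 3.96, 4.04 and 3.99 in control normal-diet livers. The control groups were apart, and hydrogen CDAA replicate 2 fell within the hydrogen normal-diet range. The difference did not pass in hydrogen rats (log2 0.55 ± 0.26, adjusted p = 0.0988), and in control rats Kif20b rose 1.94-fold (log2 0.96 ± 0.26, adjusted p = 0.00903).

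Kif22, which binds chromosome arms and pushes them to the spindle equator, read 4.04, 3.73, 4.28 and 3.96 in hydrogen CDAA livers, against 4.02, 3.77, 3.70 and 3.87 in hydrogen normal-diet livers. For control rats the values were 4.20, 3.90, 4.81 and 4.45 in control CDAA livers, against 3.89, 3.92, 3.69 and 4.05 in control normal-diet livers. Both pairs overlapped, with control CDAA replicate 3 the highest of the 16 arrays. In hydrogen rats the log2 difference did not pass (0.16 ± 0.16, adjusted p = 0.409). Kif22 was 1.37-fold higher with the CDAA diet in control rats (log2 0.45 ± 0.16, adjusted p = 0.0324), a call lost without control CDAA replicate 3 (log2 0.30, adjusted p = 0.119) or 4 (adjusted p = 0.0778) or without control normal-diet replicate 1, 2 or 3 (adjusted p = 0.0615, 0.0571 and 0.0959) or in a fit to the compared groups only (adjusted p = 0.0632). Kif20a and Kif2c were not called, with log2 differences of 0.35 in hydrogen rats and 0.70 in control rats for Kif20a and 0.04 in hydrogen rats and 0.05 in control rats for Kif2c. Kif23 was not called on its brighter probe set (log2 0.23 in hydrogen rats and 0.28 in control rats), while its dimmer set was called lower in hydrogen rats (log2 −0.18, adjusted p = 0.0416), so its probe sets disagree in direction.

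Mitotic kinases trigger spindle assembly and guard it. Aurka, which matures the spindle poles, had 3.95, 3.77, 4.60 and 3.90 in hydrogen CDAA livers, against 3.77, 3.65, 3.70 and 3.60 in hydrogen normal-diet livers. Its control arrays read 4.52, 4.04, 4.70 and 4.28 in control CDAA livers, against 3.77, 3.73, 3.87 and 3.85 in control normal-diet livers. The control groups were apart, while hydrogen CDAA replicate 2 equalled the highest hydrogen normal-diet array. In hydrogen rats the difference did not pass (log2 0.38 ± 0.15, adjusted p = 0.0549), and Aurka was 1.49-fold higher with the CDAA diet in control rats (log2 0.58 ± 0.15, adjusted p = 0.00718). Bub1, a kinase of the spindle checkpoint, gave 4.09, 3.94, 5.10 and 3.87 in hydrogen CDAA livers, against 3.93, 3.81, 3.78 and 3.43 in hydrogen normal-diet livers. The control pair gave 5.10, 4.21, 5.25 and 4.74 in control CDAA livers, against 4.31, 4.21, 4.08 and 4.09 in control normal-diet livers. Both pairs overlapped through a single low CDAA array, which was replicate 4 in hydrogen rats and replicate 2 in control rats. In hydrogen rats the log2 difference did not pass (0.51 ± 0.24, adjusted p = 0.0934). Bub1 was 1.57-fold higher with the CDAA diet in control rats (log2 0.65 ± 0.24, adjusted p = 0.0447), a call lost without any 1 of 11 of the 16 arrays (adjusted p = 0.0511 to 0.141) and held without control CDAA replicate 2, without hydrogen normal-diet replicate 4 and without hydrogen CDAA replicate 2, 3 or 4. It was also lost with no filter on low values (adjusted p = 0.0585). Plk1, Aurkb and Ttk, kinases of spindle assembly and of its checkpoint, were not called, and Plk1 was the 1 mitosis gene with a log2 difference under 0 in hydrogen rats (−0.14 ± 0.09, adjusted p = 0.23).

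The anaphase-promoting complex was represented by its activator Cdc20 and its ubiquitin-conjugating enzyme Ube2c. Cdc20 had 4.47, 4.11, 6.03 and 4.84 in hydrogen CDAA livers, against 4.48, 4.31, 4.07 and 4.09 in hydrogen normal-diet livers. Control rats gave Cdc20 values of 5.57, 4.53, 5.76 and 5.18 in control CDAA livers, against 4.95, 4.41, 4.80 and 4.86 in control normal-diet livers. Both pairs overlapped, and hydrogen CDAA replicate 3 was the highest of the 16 arrays. Its log2 differences did not pass (0.62 ± 0.32, adjusted p = 0.123 in hydrogen rats and 0.51 ± 0.32, adjusted p = 0.24 in control rats), nor did those of Ube2c (0.37 in hydrogen rats and 0.54 in control rats). At the kinetochore, where chromosomes grip the spindle, Cenpf had 4.39, 4.28, 4.92 and 4.59 in hydrogen CDAA livers, against 4.52, 4.41, 4.30 and 4.42 in hydrogen normal-diet livers. Its control arrays gave 5.17, 4.48, 4.91 and 4.84 in control CDAA livers, against 4.64, 4.45, 4.60 and 4.48 in control normal-diet livers. The groups overlapped in both pairs. Cenpf was not called (log2 0.13 ± 0.13, adjusted p = 0.438 in hydrogen rats and 0.31 ± 0.13, adjusted p = 0.0873 in control rats), and neither was Nuf2 (log2 0.07 in hydrogen rats and 0.04 in control rats).

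Genes of the central spindle and of cytokinesis included the highest SD of the 45, that of Ect2 at 1.01 in hydrogen CDAA livers. The replication gene Rrm2 had the same rounded value there. Ect2, which switches on RhoA to contract the cleavage furrow, read 4.77, 4.27, 6.60 and 5.42 in hydrogen CDAA livers, against 4.68, 4.24, 4.58 and 4.27 in hydrogen normal-diet livers. In control rats Ect2 read 6.65, 5.21, 6.82 and 6.51 in control CDAA livers, against 5.28, 5.00, 4.92 and 5.46 in control normal-diet livers. In both pairs CDAA replicate 2 fell within the normal-diet range, and the other 3 control CDAA arrays lay far above it. In hydrogen rats the log2 difference did not pass (0.82 ± 0.40, adjusted p = 0.102). Ect2 was 2.19-fold higher with the CDAA diet in control rats (log2 1.13 ± 0.40, adjusted p = 0.0357), a call lost without control CDAA replicate 1, 3 or 4 (adjusted p = 0.0903, 0.106 and 0.0791) or control normal-diet replicate 1, 2 or 3 (adjusted p = 0.0584, 0.0810 and 0.0847).

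Racgap1, the partner that brings Ect2 to the central spindle, had 4.01, 3.73, 5.29 and 4.07 in hydrogen CDAA livers, against 3.99, 3.58, 3.77 and 3.65 in hydrogen normal-diet livers. For control rats it gave 4.86, 4.07, 5.36 and 4.75 in control CDAA livers, against 4.07, 3.76, 3.73 and 3.96 in control normal-diet livers. Control CDAA replicate 2 equalled the highest control normal-diet array, and hydrogen CDAA replicate 3 stood above the rest of its group. In hydrogen rats the log2 difference did not pass (0.53 ± 0.28, adjusted p = 0.135). Racgap1 was 1.84-fold higher with the CDAA diet in control rats (log2 0.88 ± 0.28, adjusted p = 0.0222), a call lost without control CDAA replicate 1 or 3 (adjusted p = 0.0509 and 0.0821) or control normal-diet replicate 2 or 3 (adjusted p = 0.0549 and 0.0562).

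Birc5, or survivin, a subunit of the chromosomal passenger complex, had 5.29, 5.03, 6.04 and 5.65 in hydrogen CDAA livers, against 5.19, 5.02, 4.79 and 4.90 in hydrogen normal-diet livers. The control groups had 6.30, 5.39, 6.03 and 5.97 in control CDAA livers, against 5.44, 5.27, 5.13 and 5.68 in control normal-diet livers. Both pairs overlapped through CDAA replicate 2. Birc5 was 1.44-fold higher with the CDAA diet in hydrogen rats (log2 0.53 ± 0.20, adjusted p = 0.0449) and 1.46-fold higher in control rats (log2 0.54 ± 0.20, adjusted p = 0.048), and both calls sat at the threshold. The first was lost without any 1 of 9 arrays (adjusted p = 0.0524 to 0.161), which were hydrogen CDAA replicate 3 and 4, hydrogen normal-diet replicate 2, 3 and 4, control CDAA replicate 3 and 4 and control normal-diet replicate 1 and 2. The second was lost without any 1 of 12 arrays (adjusted p = 0.0516 to 0.148) and held without hydrogen CDAA replicate 2 or 3, control CDAA replicate 2 or control normal-diet replicate 4. Both were also lost with no filter on low values (adjusted p = 0.0549 and 0.0621) and with a second quantile normalization (adjusted p = 0.0864 and 0.0865), and the second with the mean over the probe sets (adjusted p = 0.0509). Nusap1, Prc1 and Anln, which bundle microtubules or scaffold the furrow, were not called, with log2 differences of 0.28 in hydrogen rats and 0.43 in control rats for Nusap1, 0.36 in hydrogen rats and 0.36 in control rats for Prc1 and 0.20 in hydrogen rats and 0.11 in control rats for Anln.

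How many genes passed depended on single livers. In hydrogen rats the count of 15 became 23 without hydrogen CDAA replicate 2, of which 12 were mitosis genes, while 30% of all genes rose in that fit. It became 12 without hydrogen CDAA replicate 3 or hydrogen normal-diet replicate 4, with 29.6% of all genes in either fit. In control rats the count of 15 became 26 without control CDAA replicate 2, of which 19 were mitosis genes, while 26.8% of all genes rose. It became 8 without control CDAA replicate 3, where 23.3% of all genes rose. It became 9 without control CDAA replicate 1, control normal-diet replicate 2 or control normal-diet replicate 3, where 24.5%, 23.2% and 23.8% of all genes rose.

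The spread between arrays of 1 group was wider for these genes than for most genes on the CDAA diet. The median SD over 4 arrays was 0.38 for the 45 members in hydrogen CDAA livers and 0.29 in control CDAA livers, where the median over all genes was 0.13 and 0.11. In hydrogen normal-diet and control normal-diet livers the members had a median SD of 0.17 and 0.14, and all genes 0.085 and 0.096. Mitosis genes (median SD 0.47 and 0.42 in hydrogen and control CDAA livers) were more spread than replication genes (0.29 and 0.25). The widest were Ect2 with an SD of 1.01 in hydrogen CDAA livers and Ccnb2 with 0.85 in control CDAA livers. The replication gene Rrm2 was close to them, with an SD of 1.01 in hydrogen and 0.77 in control CDAA livers. Without hydrogen CDAA replicate 3 the median SD of that group was 0.16, and without control CDAA replicate 2 that of its group was 0.20.

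The order of the arrays within a CDAA group was alike for most members. Hydrogen CDAA replicate 3 was the highest of its group for 43 of 45 genes, including 28 of 28 mitosis genes and 12 of 14 replication genes, and for 24.5% of all genes. Hydrogen CDAA replicate 2 was the lowest for 34 of 45, including 24 of 28 mitosis genes, against 20.8% of all genes. Control CDAA replicate 2 was the lowest for 28 of 28 mitosis genes but for 5 of 14 replication genes, against 28.1% of all genes. Macrophage markers averaged 8.67 in hydrogen CDAA replicate 2, the highest of its group, and 8.09 in control CDAA replicate 2, the lowest of its group. The bile duct markers averaged 5.16, 5.05, 5.25 and 4.97 in hydrogen CDAA livers and 5.195, 4.60, 5.202 and 4.79 in control CDAA livers. Replicate 3 was the highest of each group. The lowest was replicate 4 in hydrogen CDAA livers and replicate 2 in control CDAA livers. Stellate markers averaged 7.30, 7.17, 7.30 and 7.14 in hydrogen CDAA livers and 7.20, 6.97, 7.23 and 7.04 in control CDAA livers. Endothelial markers averaged 7.94, 8.02, 7.74 and 7.78 in hydrogen CDAA livers and 7.56, 7.91, 7.79 and 7.82 in control CDAA livers, with replicate 2 the highest of each group. T and NK markers averaged 4.30 in hydrogen CDAA replicate 2, the highest of its group, and 3.96 in replicate 3, the lowest, and 4.05 to 4.06 in control CDAA livers. Neutrophil markers averaged 3.84, 4.14, 3.81 and 3.93 in hydrogen CDAA livers and 3.78, 3.94, 3.72 and 3.76 in control CDAA livers. B cell markers averaged 4.74, 4.66, 4.17 and 4.40 in hydrogen CDAA livers and 4.22, 4.53, 4.44 and 4.49 in control CDAA livers. Red blood cell markers averaged 4.26, 4.23, 3.995 and 4.00 in hydrogen CDAA livers and 4.08, 4.07, 4.005 and 4.08 in control CDAA livers. The part of those cells in the spread was not tested. Hepatocyte markers averaged 12.81 in hydrogen CDAA replicate 3, 12.77 in hydrogen CDAA replicate 2 and 12.72 in control CDAA replicate 2.

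**Figure D3:**
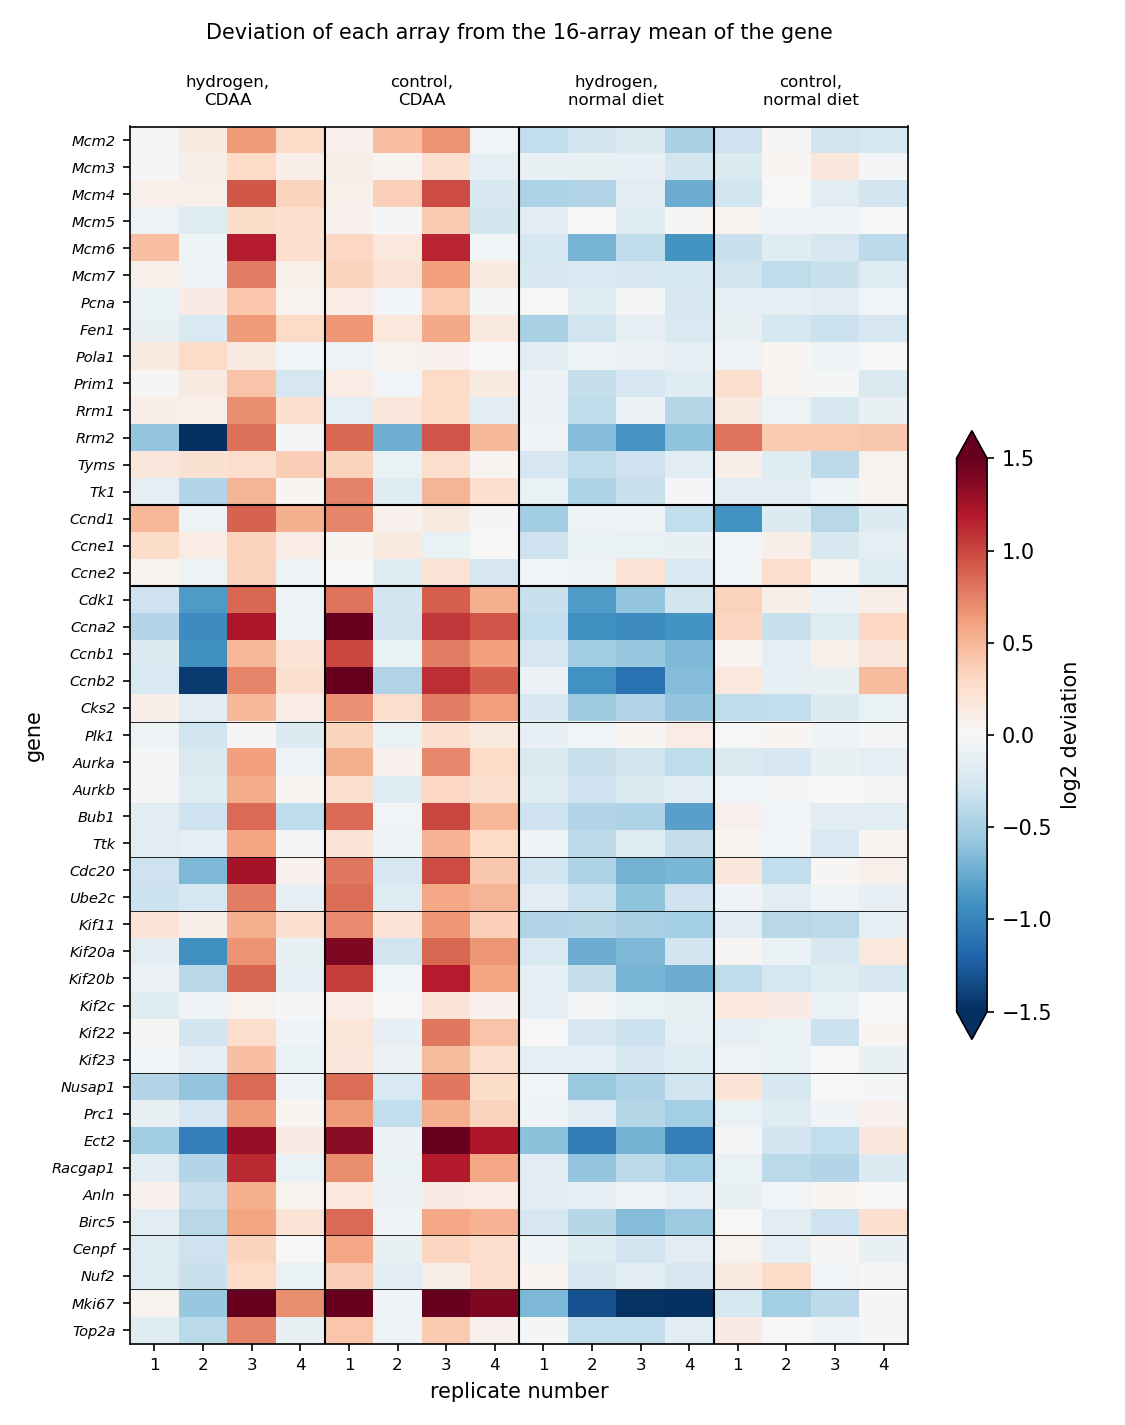
Deviation of each array from the 16-array mean of the gene, in log2 units (red above, blue below, colours end at ±1.5), for the 45 tested genes in rows and the 16 arrays in columns by group and replicate number. Thick lines part the groups and the replication genes (top), G1 cyclins and mitosis genes. Replicate 3 of the hydrogen CDAA group has the highest value of its group in 43 of 45 rows, and replicate 2 of the control CDAA group has the lowest of its group in 33 of 45.

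The replication and mitosis genes were then compared through the mean of each list on each array. Levels of different genes are not comparable on an array, so only the change of a mean between arrays is read. The 14 replication genes averaged 5.69, 5.59, 6.27 and 5.83 in hydrogen CDAA livers and 5.95, 5.73, 6.22 and 5.71 in control CDAA livers, against 5.49, 5.37, 5.44 and 5.36 in hydrogen normal-diet livers and 5.65, 5.63, 5.56 and 5.60 in control normal-diet livers. The CDAA arrays lay above the normal-diet arrays in both treatments. The 28 mitosis genes averaged 4.66, 4.35, 5.50 and 4.82 in hydrogen CDAA livers and 5.54, 4.69, 5.53 and 5.29 in control CDAA livers, against 4.60, 4.34, 4.32 and 4.35 in hydrogen normal-diet livers and 4.80, 4.65, 4.66 and 4.82 in control normal-diet livers. Here the diets overlapped in both treatments, through replicate 2 of each CDAA group. The CDAA diet was 0.43 above the normal diet for replication and 0.43 for mitosis in hydrogen rats, and 0.29 and 0.53 in control rats.

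**Figure D4:**
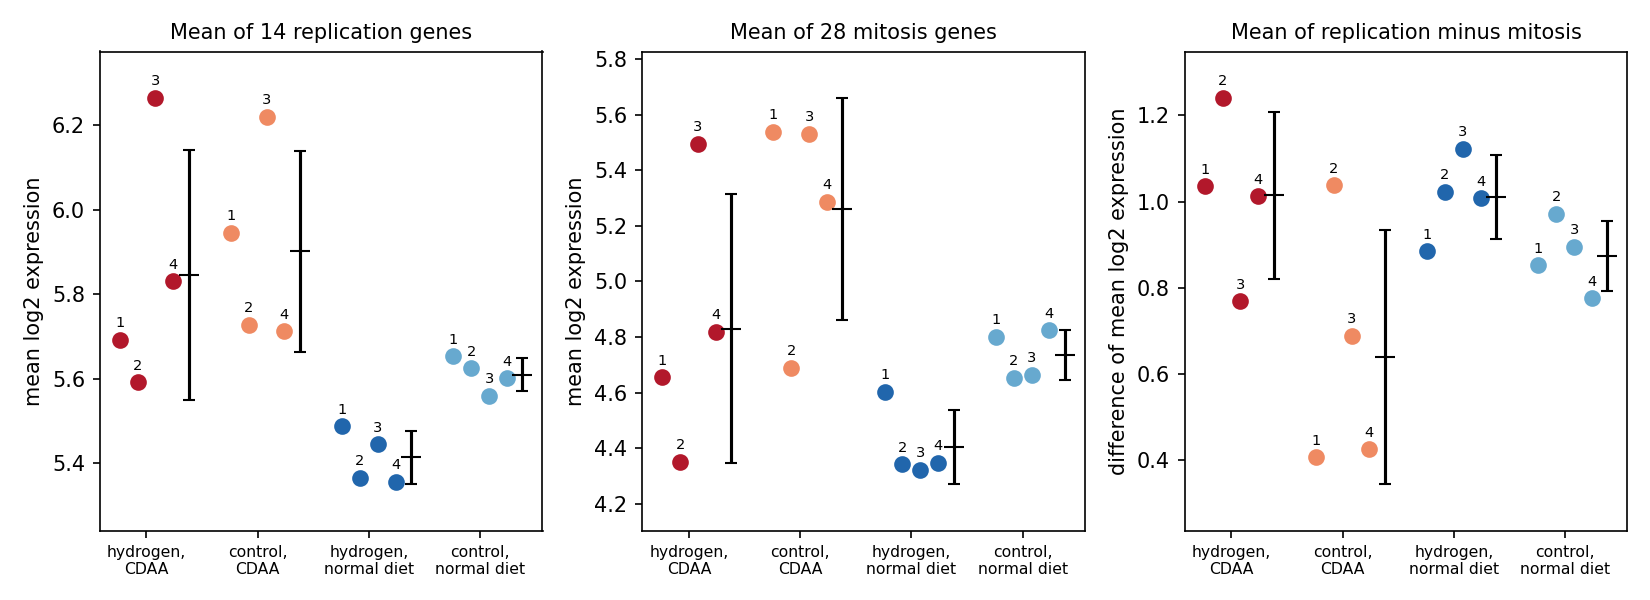
Mean log2 expression of the 14 replication genes (left), the 28 mitosis genes (middle) and the first minus the second (right) on each of 16 arrays, numbered by replicate; the bars give the mean ± SD of 4 arrays in hydrogen CDAA, control CDAA, hydrogen normal-diet and control normal-diet livers. The difference averaged 1.01 in hydrogen CDAA livers and 0.64 in control CDAA livers, and control CDAA replicate 2, at 1.04, sits with the hydrogen group.

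Replication minus mitosis averaged 1.01 ± 0.19 in hydrogen CDAA livers and 0.64 ± 0.29 in control CDAA livers, and 1.01 ± 0.10 in hydrogen normal-diet livers and 0.87 ± 0.08 in control normal-diet livers (SD, n = 4 each). Its 4 values were 1.04, 1.24, 0.77 and 1.01 in hydrogen CDAA livers, against 0.41, 1.04, 0.69 and 0.43 in control CDAA livers, so 3 of the 4 control arrays lay below the 4 hydrogen arrays and replicate 2 lay among them. No test was made on these means.

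Hydrogen was compared with control on each diet to ask whether the treatment changed these genes. These comparisons use the same 4 groups as the diet comparisons, so their values are not independent of those. The members are read from the same livers, so counts of members on the same side of 0 are not counts of independent observations. On the CDAA diet 0 of 45 members were called in either direction (smallest adjusted p = 0.186, Cks2, by limma), while 0.192% of all genes were called higher and 0.184% lower. At an unadjusted p under 0.05 there were 14 members, 13 of them mitosis genes, and 12.6% of all genes. The median log2 difference was −0.41 over the 28 mitosis genes, of which 27 lay below 0, and 0.02 over the 14 replication genes, beside 0.01 over all genes. In no member did the groups stand apart without overlap, which all genes did at 2.25% higher and 1.51% lower.

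Cks2 ran over 7.70 to 8.34 in hydrogen CDAA livers, against 8.12 to 8.62 in control CDAA livers, with overlap and a log2 difference of −0.45 ± 0.13, adjusted p = 0.186. Plk1, the polo kinase that starts mitosis, read 4.01, 3.78, 4.10 and 3.88 in hydrogen CDAA livers, against 4.42, 3.98, 4.34 and 4.23 in control CDAA livers. The groups overlapped through control CDAA replicate 2, and the log2 difference was −0.30 ± 0.09, adjusted p = 0.205. The largest differences, again with overlap and not past the threshold, were those of Ect2 (−1.03 ± 0.40, adjusted p = 0.319), Ccnb2 (−0.93 ± 0.42, adjusted p = 0.405) and Ccna2 (−0.87 ± 0.39, adjusted p = 0.409). Without control CDAA replicate 2, Plk1 (log2 −0.39, adjusted p = 0.0242) and Cks2 (log2 −0.56, adjusted p = 0.0352) were called lower, and 0.612% of all genes were. No other left-out array gave a call. The replication genes Rrm1 (0.23 ± 0.14, adjusted p = 0.558), Tyms (0.12 ± 0.11, adjusted p = 0.709) and Pola1 (0.12 ± 0.06, adjusted p = 0.51) had positive differences that did not pass.

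On the normal diet 0 of 45 members were called (smallest adjusted p = 0.596, Rrm2, by limma), beside 0.00875% of all genes higher and 0% lower, and 4 members had an unadjusted p under 0.05 beside 7.11% of all genes. Differences lay below 0 for 41 of the 45, with a median of −0.23 over mitosis genes and −0.14 over replication genes, where all genes had −0.01. In 11 members every hydrogen array lay below every control array and in 0 above it, beside 3.26% and 2.43% of all genes. These were the replication genes Pola1 and Rrm2 and the mitosis genes Cdk1, Ccna2, Ccnb1, Aurkb, Bub1, Kif11, Kif23, Ect2 and Mki67.

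Rrm2 had the largest difference there, with 6.95, 6.35, 6.12 and 6.40 in hydrogen normal-diet livers, against 7.82, 7.40, 7.39 and 7.41 in control normal-diet livers. The groups were apart. The fit, whose estimate of spread comes from all 4 groups, gave a log2 difference of −1.05 ± 0.41, adjusted p = 0.596, which did not pass. A second, dimmer probe set of Rrm2 gave −0.24 ± 0.15 in the same limma fit (adjusted p = 0.785). Mki67 had a log2 difference of −0.98 ± 0.40, adjusted p = 0.604, and its 4 hydrogen arrays lay below its 4 control arrays, as did those of Cdk1, which read 5.39, 4.87, 5.13 and 5.45 in hydrogen normal-diet livers, against 6.07, 5.81, 5.64 and 5.82 in control normal-diet livers (−0.62 ± 0.29, adjusted p = 0.668). Ccna2, cyclin A2, read 4.08, 3.54, 3.51 and 3.56 in hydrogen normal-diet livers, against 4.78, 4.12, 4.27 and 4.76 in control normal-diet livers, with 3 hydrogen arrays under the low-value line (−0.81 ± 0.39, adjusted p = 0.684). A fit to the 2 normal-diet groups alone also called 0 members, with a smallest adjusted p of 0.0559 among replication genes and 0.0901 among mitosis genes, beside 0.0175% of all genes higher and 0.07% lower. In array means, mitosis genes were lower in hydrogen normal-diet livers (4.32 to 4.60) than in control normal-diet livers (4.65 to 4.82) and replication genes likewise (5.36 to 5.49 against 5.56 to 5.65).

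**Figure D5:**
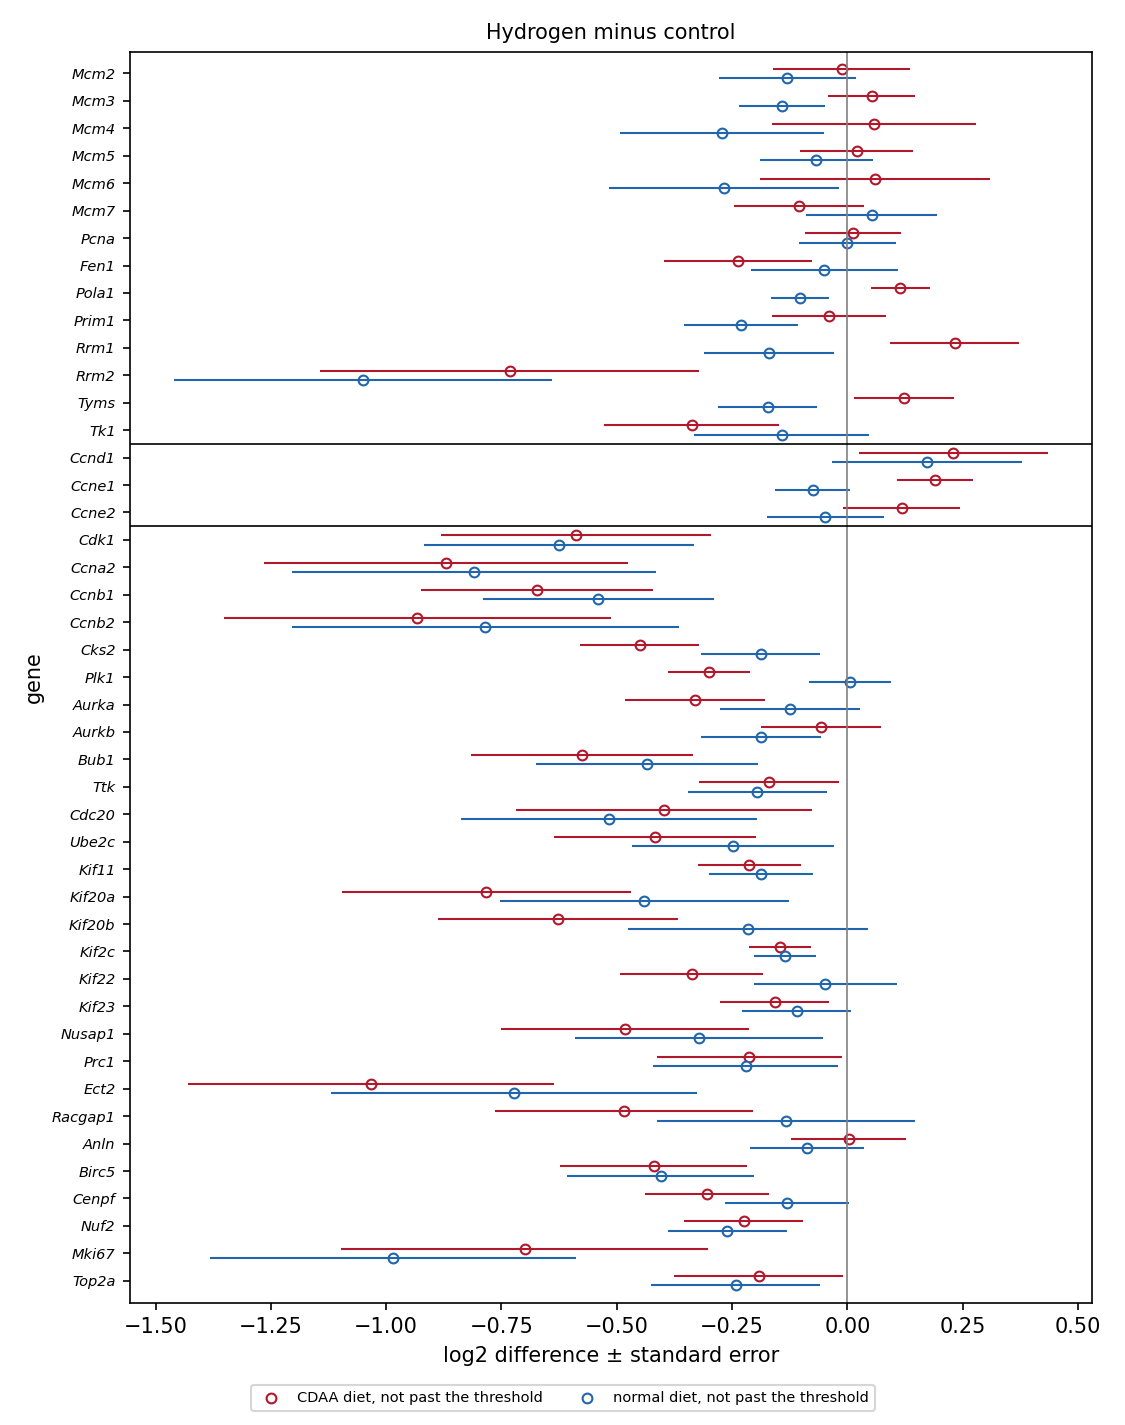
Log2 difference between hydrogen and control livers for the 45 tested genes, with the standard error of the fit as a bar, on the CDAA diet (dark red) and on the normal diet (blue), 4 against 4 in each; open points did not pass the threshold, and no point is filled. Nearly all mitosis genes (lower block) lie left of 0 on both diets, 27 of 28 on each, while replication genes (top block) lie on both sides of 0 on the CDAA diet. The genes are read from the same livers, so these are not independent observations.

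Other genes of the same processes were read from lists chosen by name, with values as log2 differences between the diets. Of 26 tested further replication genes, 10 rose and 3 fell in hydrogen rats on the CDAA diet, and 7 rose and 1 fell in control rats. All genes rose at 32.1% and fell at 17.3% in hydrogen rats and rose at 27.3% and fell at 13.3% in control rats. The counts that rose, in this list and the next 2, were near, under or somewhat above these shares. In hydrogen rats this list and the regulators stood somewhat above. No list was tested as a set, and the counts are no result about the lists. Rnaseh2a, which removes RNA from DNA (0.78 in hydrogen and 0.61 in control rats), Orc2 of the origin recognition complex (0.35 in hydrogen and 0.24 in control rats), Lig1, the ligase of Okazaki fragments (0.29 in hydrogen and 0.29 in control rats), Rpa2 of the single-strand binding protein (0.43 in hydrogen and 0.47 in control rats) and Rfc4 of the clamp loader (0.62 in hydrogen and 0.47 in control rats) rose in both. Chaf1a of a chromatin assembly factor passed in hydrogen rats (0.39 in hydrogen and 0.13 in control rats), and Gins4 of the helicase complex (0.21 in hydrogen and 0.46 in control rats) and Orc6 (0.11 in hydrogen and 0.37 in control rats) passed in control rats. Pola2 fell in both (−0.20 in hydrogen and −0.21 in control rats), and Rpa1 (−0.23 in hydrogen and −0.14 in control rats) and Rpa3 (−0.34 in hydrogen and −0.19 in control rats) passed as lower in hydrogen rats, all 3 named after their values were seen.

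Of 32 tested further mitosis genes, 7 rose and 1 fell in hydrogen rats, and 9 rose and 1 fell in control rats, beside 32.1% and 27.3% of all genes higher. The kinetochore gene Zwint (0.67 in hydrogen and 0.51 in control rats), the condensin genes Smc2 (0.90 in hydrogen and 0.96 in control rats) and Ncapd2 (0.33 in hydrogen and 0.49 in control rats), Mad2l1 of the spindle checkpoint (0.55 in hydrogen and 0.52 in control rats) and the centromere gene Cenpn (0.47 in hydrogen and 0.44 in control rats) rose in both. The centromere gene Cenpm passed in hydrogen rats (0.27 in hydrogen and 0.17 in control rats), where the F-box cyclin Ccnf passed as lower (−0.37 in hydrogen and −0.18 in control rats). The condensin gene Smc4 passed in control rats (0.26 in hydrogen and 0.42 in control rats), where Pimreg passed as lower (−0.14 in hydrogen and −0.21 in control rats), the last named after its value was seen.

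Of 22 tested regulators of the cycle, 9 rose and 2 fell in hydrogen rats, and 7 rose and 1 fell in control rats, beside 32.1% and 27.3% of all genes higher. Ccng1, a target of p53 (1.09 in hydrogen and 1.10 in control rats), Cdk4, the partner of cyclin D1 (0.51 in hydrogen and 0.40 in control rats), Rbl1, a pocket protein that binds E2F factors (1.24 in hydrogen and 0.88 in control rats), Cdc25a, a phosphatase that activates the Cdks (0.36 in hydrogen and 0.48 in control rats), and the checkpoint kinase Chek1 (0.73 in hydrogen and 0.26 in control rats) rose in both. So did Pkmyt1 (0.58 in hydrogen and 0.62 in control rats) and Wee1 (0.78 in hydrogen and 0.69 in control rats), kinases that hold back Cdk1. Ccnd2, cyclin D2, fell in both (−0.54 in hydrogen and −0.62 in control rats), and Rb1, the retinoblastoma gene, passed as lower in hydrogen rats (−0.33 in hydrogen and −0.15 in control rats), both named after their values were seen. Between hydrogen and control livers 0 genes of the 3 lists were called by limma on either diet. At an unadjusted p under 0.05 there were 3 further replication genes, 8 further mitosis genes and 4 regulators on the CDAA diet, beside 12.6% of all genes, and 0, 1 and 2 on the normal diet, beside 7.11%.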

How the data were processed

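RNA of 16 rat livers was read on Affymetrix RG-230 PM arrays. The deposited values are on a log2 scale, 1 for each probe set and array, and were made by RMA in Affymetrix Expression Console per the submitters' processing notes, which name no version. RMA gives every array the same distribution, so a shift of all transcripts would not show. Probe sets were named by the platform annotation (19069 with 1 symbol, 572 with several, 11498 not listed). After 97 controls were left out, 22634 probe sets above 3.68, the 30th percentile, on at least 4 arrays were kept and 8408 dropped. limma 3.58.1 (R 4.3.3) fitted group means to the 16 arrays, with eBayes and Benjamini-Hochberg adjustment over probe sets. A trial on simulated arrays used independent noise with the same spread in every group. Spread that differs between groups or is shared among genes was not simulated, so the trial does not bear on the members' calls. Differences are CDAA minus normal diet and hydrogen minus control. The members and lists were chosen with earlier results of these data known. Members called in a diet comparison by the fit, and those of largest difference within a role, are described with every array; of the other lists, up to 6 of smallest adjusted p per comparison are named. Same-numbered arrays in different groups deviated together in 9 of 24 pairs by a correlation over 0.1, from −0.13 to 0.33. Between the CDAA groups these pairs gave −0.08, 0.26, 0.33 and 0.19 for replicates 1 to 4. Differently numbered pairs there ran from −0.46 to 0.25. A shared effect of the replicate number was not tested. The main fit did not use the numbers as pairs. The number of arrays limits the precision. Each p-value sets a difference against the spread between rats, estimated in the main fit over all 4 groups together. The members were more spread on the CDAA diet than on the normal diet. The labels and files used here name neither array strip nor day of scanning, so a batch could not be checked. Alternatives covered the filter, normalization, array weights, probe set choice, a fit to the compared groups only, the replicate number as a block and leaving out each array. Promoters are RefSeq's, assembly GRCr8.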

Additional observations from a re-analysis of the deposited data

Results flagged for a closer look

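Of 196 groups of 4 arrays examined, 11 (5.61%) held a value that stood apart from the rest of its group by Dixon's test. Chance gives about 1 in 20. The array means are built from the same genes, so these groups are not independent. Each value is given with no explanation. Among replication genes, Mcm7 was at 8.14 in hydrogen CDAA replicate 3, where the other 3 arrays were at 7.30 to 7.43. Mcm3 was at 4.27 in hydrogen normal-diet replicate 4, with the others at 4.42 to 4.43. Control normal-diet replicate 2 had Mcm2 at 5.19 (others 4.86 to 4.91), and control normal-diet replicate 1 had Rrm2 at 7.82 (others 7.39 to 7.41). The cyclins Ccne1 at 4.85 (others 5.05 to 5.06) and Ccna2 at 4.08 (others 3.51 to 3.56) stood apart in hydrogen normal-diet replicate 1. Among mitosis genes, Kif23 was at 4.32 in hydrogen CDAA replicate 3 (others 3.74 to 3.83), and control CDAA replicate 2 had Aurkb at 3.82 (others 4.25 to 4.33) and Mki67 at 5.49 (others 6.94 to 7.13). The mean over the 28 mitosis genes was 4.6029 in hydrogen normal-diet replicate 1 (others 4.3218 to 4.3482), and the mean over the 45 members was 4.9476 there (others 4.7518 to 4.7798).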

How the results depend on the processing

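No called difference changed sign under the alternatives run, but calls ended. Beside those lost without single arrays, the diet calls of Mcm7, Fen1 and Birc5 in hydrogen rats and of Birc5 in control rats ended with a second quantile normalization, those of Birc5 in hydrogen rats and of Mcm6, Bub1 and Birc5 in control rats with no filter, those of Fen1 in hydrogen rats and Kif22 in control rats with the compared groups only, that of Mcm3 in hydrogen rats with array weights, and those of Ccnd1 in hydrogen rats and of Ccnd1 and Birc5 in control rats with the mean over probe sets. With array weights 27 members were called for the diet in control rats, 19 of them mitosis genes, while 30.4% of all genes rose, and the cause was not tested. Under the other settings that kept the 16 arrays or the groups compared, 13 to 18 members were called for the diet in hydrogen rats and 12 to 19 in control rats, while 24.4% to 37.9% and 22.3% to 33.2% of all genes rose. Leaving out each array in turn gave 12 to 23 in hydrogen rats, 8 to 26 in control rats, 0 to 2 between the CDAA groups, and 0 between the normal-diet groups and in the interaction. With the replicate block the counts were 18 and 19 for the diet in hydrogen and control rats. Of all genes 32.7% and 27.7% were higher there, and the counts for the other comparisons were 0. Whether same-numbered arrays shared an effect was not tested. Under the remaining settings the hydrogen comparisons and the interaction gave 0, beside 14, 4 and 3 members at an unadjusted p under 0.05 by limma with the settings reported. The interaction was not run on the compared groups only, since it needs all 4. Replication minus mitosis in control normal-diet livers was 0.7847 with the mean over a gene's probe sets, against 0.8739, and leaving out an array gave 0.9393 to 1.0963 in hydrogen CDAA, 0.5073 to 0.7174 in control CDAA, 0.9721 to 1.0513 in hydrogen normal-diet and 0.8413 to 0.9065 in control normal-diet livers. Genes near the low-value line, such as Tyms, Ccna2, Pola1 and Racgap1, carry less signal over background, which can understate their differences. The stricter filter (above 4.35 on at least 4 arrays) left Aurka, Kif22, Pola1 and Tyms untested, so their diet calls were not checked under it.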
